A study of Rattus norvegicus with 9 samples.

Results

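Transcript abundance in the ischemic-side cortex was compared between model rats and control rats, which were 6 of the 9 arrays of the series. The arrays were taken by their labels, 3 per group with 1 rat per array, and the features were the probes for transcripts that the scanner software marked as well above background on each of the 6 arrays, in IP and in Sup alike. Of 41186 transcript probes on the array 22981 met this criterion, and 22564 of them kept a value on at least 2 arrays of each group after outlier spots were left out and were tested. All rats were male Sprague Dawley rats bought at 8 weeks of age. In the model group (cerebral ischemia-reperfusion injury) the left middle cerebral artery was blocked with a wire plug for 2 h and then reperfused, and the cortex was taken on day 7. Control rats underwent the same surgery without the plug. A further group of 3 model rats given Buyang Huanwu Decoction (BHD) entered only 1 alternative fit. The tissue was whole cortex of the ischemic side, so that fewer cells of a type and less RNA per cell cannot be told apart in any value below.

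N6-methyladenosine (m6A) is a methyl mark on adenosine inside mRNAs and long noncoding RNAs. In this assay an anti-m6A antibody divides the RNA of each rat into a bound fraction (IP), enriched for marked transcripts, and a supernatant (Sup) of transcripts that were not bound, and both are labelled and hybridized to the same array. The sum of both fractions, log2(IP+Sup), is read here as the amount of a transcript, and Sup as the unbound amount only. The fractions were amplified and labelled separately, and their channels were then scaled to each other. Their true proportion is therefore not kept, and a shift of RNA between fractions can also change the sum. Cortex in the days after ischemia is known for loss of neurons and for activation of glia and entry of immune cells. Ultraconserved regions are stretches of genome kept identical between human, mouse and rat, and some of them are transcribed as long noncoding RNAs, named uc. with a number and a sign for the strand.

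Of the transcripts in the study's primer table, uc.440- and uc.77- could be matched to a probe by name, and their primers are shown because they identify the lncRNAs whose values are given further down. They are given 5′ to 3′ in lower case, and no part is marked in capitals.
uc.440- forward: atgagttacaaccttcacgcag
uc.440- reverse: accagcatttaatttcagccc
uc.77- forward: ttaaaggaagtctgactgctgc
uc.77- reverse: gttctcgccacactctgtttct
The primers were 21 to 22 bases long with a GC share of 42.9% to 50%. The probe sequences themselves were not used here, so the position of a probe relative to these primers is not given.

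The 3 control arrays and model replicate 1 were scanned in 1 session, and model replicates 2 and 3 in another. Both channels were well above background for 57.8% to 67.3% of probes on the control arrays and for 63.9% to 71.0% on the model arrays, and no spot was saturated. The log2(IP+Sup) values of the control arrays correlated across tested probes with r of 0.992 between replicates 1 and 2, but with 0.978 and 0.980 between these and replicate 3, below the lowest r of 0.987 between model arrays. With model replicates 1, 2 and 3 the r of control replicate 3 was 0.985, 0.985 and 0.980. Control replicate 3 thus stood apart from the other control arrays, and the main counts are given with and without it.

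After normalization log2(IP+Sup) differed little between the groups for most probes. The quantile step gives all arrays the same distribution of mean log signal, so a small median change is largely set by the scaling. The median change in log2(IP+Sup), model minus control, was -0.04 over all tested probes, and the changes of the central 90% lay between -0.33 and 0.25. For 17991 probes (79.7%) the 95% interval of the change lay within a 1.5-fold difference either way. This share was 97.4% in the dimmest quintile of probes by mean signal and 68.2% in the brightest. The background correction added an offset of 50 to each channel, which narrows the log changes of dim probes most. The share in the dimmest quintile is therefore set in part by the processing. A probe was called when its fold change was at least 1.5 at an unadjusted p under 0.05, the thresholds of the study, in a limma fit. By this rule 325 probes (1.44%) were called, 210 higher in the model group (0.931%) and 115 lower (0.51%). The unadjusted p alone was under 0.05 for 1815 probes (8.04%). None passed after Benjamini-Hochberg adjustment, and the lowest adjusted p was 0.24. Among the called probes, 84 were at least 2-fold higher and 18 at least 2-fold lower in the model group. The median change was 0.91 for the higher and -0.73 for the lower probes.

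**Figure D1:**
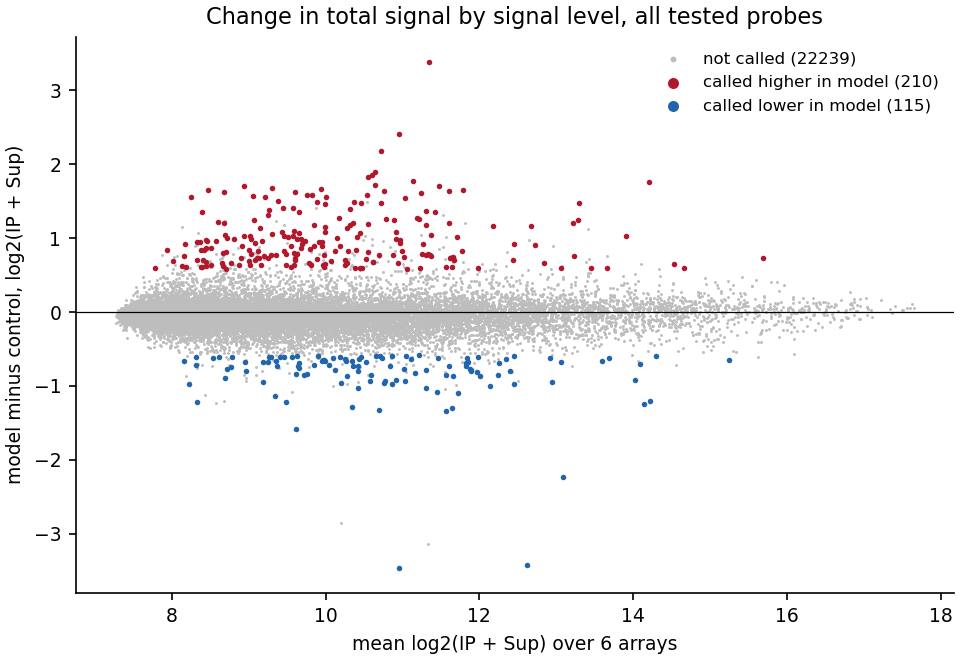
Each point is a tested probe, with its mean log2(IP+Sup) signal over 6 arrays on the horizontal axis and the change in log2(IP+Sup), model minus control, on the vertical axis. Red points are the 210 probes called higher and blue points the 115 called lower in the model group, and the called probes are sparse at the dim end of the axis, where the changes form a narrow band around 0.

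The division between higher and lower calls depended on how the arrays were brought to 1 scale. With loess but without the quantile step between arrays, 59 probes were called higher and 357 lower, and with array medians only 44 higher and 397 lower. These scalings moved the median of all tested probes to -0.15 and -0.18. Scaling each channel to its 75th percentile gave 261 higher and 254 lower, and the scanner's processed signals gave 405 higher and 271 lower. With the authors' normalized values 824 probes were called higher and 149 lower. A normexp offset of 10 gave 267 higher and 199 lower, and median centring gave 216 higher and 88 lower. Among these scalings lower calls outnumbered higher ones only in those with loess but no quantile step and with array medians only. Across these 7 other scalings 101 of the 325 probes were called in the same direction every time. They were 40 of the 210 probes called higher and 61 of the 115 called lower.

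Control replicate 3 also changed this balance. Without it 727 probes were called, 230 higher and 497 lower, and 53 of them had an adjusted p under 0.05. Without model replicate 3 the number called was 229, 119 higher and 110 lower. Of the 325 called probes, 107 were called in the same direction whichever of the 6 replicates was left out, 71 higher and 36 lower. Both the 7 scalings and the 6 left-out replicates kept 59 probes, 24 higher and 35 lower.

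The groups did not overlap at all on log2(IP+Sup) for 2917 of the 21295 probes with a value on every array (13.7%), 724 higher in the model group (3.4%) and 2193 lower (10.3%). With 3 arrays per group, a share of 0.1 of probes would be expected not to overlap without any group difference. Of the 325 called probes 237 had groups that did not overlap. Small shifts downwards were therefore more frequent than small shifts upwards in this scaling, although calls past 1.5-fold were more frequent upwards. On Sup the groups did not overlap for 2998 probes (14.1%), 696 higher (3.27%) and 2302 lower (10.8%), and on IP for 2433 (11.4%), 840 higher (3.94%) and 1593 lower (7.48%).

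The Sup signal gave a similar count. On Sup 374 probes were called (1.66%), 252 higher (1.12%) and 122 lower (0.541%), with a lowest adjusted p of 0.66 and 1626 probes (7.21%) that had p under 0.05 before adjustment. In IP, 446 probes were called (1.98%), 207 higher (0.917%) and 239 lower (1.06%), with a lowest adjusted p of 0.43 and 1514 probes (6.71%) that had p under 0.05 before adjustment. The Sup calls also turned with the scaling, from 16 higher and 102 lower with array medians only to 2215 higher and 52 lower in the authors' table, where the median of all probes lay at 0.21. Without control replicate 3, 315 probes were called higher and 452 lower on Sup, and 254 higher and 815 lower on IP.

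Both fractions took part in most changes of the total. Of the 210 probes called higher on log2(IP+Sup), 127 were called higher in both fractions, 45 in Sup only, 34 in IP only and 4 in neither, and the change was above 0 in both fractions for all 210. Of the 115 probes called lower, 50 were called lower in both fractions, 19 in Sup only, 44 in IP only and 2 in neither, and 113 were below 0 in both. The median change of the higher probes was 0.88 in Sup and 0.92 in IP. That of the lower probes was -0.67 in Sup and -0.81 in IP. These counts describe sums and their parts, which share their signals and are not independent.

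For the probes called higher, the median difference from the control mean was not the same in each model rat. Of the probes called higher, 198 had a value on model replicate 1 and on all control arrays of the same scan session, and in all 198 replicate 1 exceeded the control mean, by a median of 0.84. In 192 of them it exceeded every control array. The same probes stood 0.50 above the control mean in model replicate 2 and 1.40 above it in replicate 3, both from the other session. For 95 probes called lower, the median difference was -0.77, -0.74 and -0.76 in replicates 1, 2 and 3, and replicate 1 was below every control array in 92. Since replicate 1 helped to call these probes, the counts describe the probes and are no further test. Over all tested probes with these values replicate 1 lay above every control array in 10.6% and below every one in 35.3%. With the scan session as a block, a change rests on model replicate 1 alone against the control arrays, since the other session held no control array. With this block lower calls on log2(IP+Sup) outnumbered higher ones, and the median change over all tested probes was -0.06. The change of the scale between sessions cannot be told apart from differences between model replicate 1 and the other model rats.

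The array's probes fall into classes by the start of their names, and the files do not say which RNA types the classes hold. The class ASRN6AP1B took up 17738 of the tested probes and 297 of the 325 calls, 197 higher and 100 lower. Its share called, 1.67%, was above that of ASRN6AP1A (14 of 1648, 0.85%, with 7 higher and 7 lower) and of ASRNV (12 of 1692, 0.709%, with 5 higher and 7 lower). No probe of the 1261 of class ASRN6SM was called, and 3.01% of them reached an unadjusted p under 0.05, where 5% would be expected without any change. None of the tested probes of any class passed after adjustment. Of the 191 probes for ultraconserved regions 2 were called (1.05%), and of the 34 probes named by an accession none.

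Class medians lay close to that of all probes. They were -0.04 for ASRN6AP1B, -0.03 for ASRN6AP1A, -0.03 for ASRNV, -0.02 for ASRN6SM and -0.02 for the uc. probes. The accession probes lay lower, at -0.09. The spread of the changes differed more between classes, with an SD across probes of 0.23 in ASRN6AP1B and 0.12 in ASRN6SM. On Sup, 346 probes of ASRN6AP1B were called (1.95%), 11 of ASRN6AP1A (0.667%), 12 of ASRNV (0.709%), 1 of ASRN6SM, 3 uc. probes and 1 accession probe.

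The absence of calls in ASRN6SM did not hold under every setting. With the authors' normalized values 41 of its probes were called, all higher. Without control replicate 3, 8 were called, 3 higher and 5 lower. The counts of the other classes also moved without that array, and lower calls then outnumbered higher ones in each. ASRN6AP1B had 660 calls, 209 higher and 451 lower, ASRN6AP1A 24, 7 higher and 17 lower, and ASRNV 25, 10 higher and 15 lower. The uc. probes had 5, 1 higher and 4 lower, and the accession probes 5, all lower.

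The classes were also not equally bright. The median log2(IP+Sup) level was 9.02 in ASRN6AP1B and 8.24 to 8.47 in ASRN6AP1A, ASRNV and ASRN6SM. Probes were divided into 5 quintiles by their mean log2(IP+Sup) over the 6 arrays. This level is a hybridization signal and ranks probes, not molecules. The number called was 1 of 4513 in the dimmest quintile (0.0222%), 26 in the second (0.576%), 58 in the third (1.29%), 134 in the fourth (2.97%) and 106 in the brightest (2.35%). Higher calls outnumbered lower ones by 21 to 5 in the second quintile and 45 to 13 in the third, but stood at 58 to 48 in the brightest. The share with an unadjusted p under 0.05 also went up from 2.22% in the dimmest to 11.9% in the fourth and was 11.1% in the brightest quintile. Without control replicate 3 the number called was 2, 55, 136, 279 and 255 from the dimmest to the brightest quintile. Lower calls then outnumbered higher ones in each of the 5, by 35 to 20 in the second, 88 to 48 in the third, 188 to 91 in the fourth and 184 to 71 in the brightest.

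Within a quintile the classes still differed in their share called. In the fourth quintile ASRN6AP1B had 124 of 3796 probes called (3.27%), ASRN6AP1A 5 of 271 (1.85%), ASRNV 3 of 247 (1.21%) and ASRN6SM none of 159. In the brightest quintile ASRNV had 6 of 162 called (3.7%), against 95 of 3982 (2.39%) in ASRN6AP1B, 5 of 238 (2.1%) in ASRN6AP1A and none of 103 in ASRN6SM. These are counts of probes on the same 6 arrays and no test between classes was made.

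The dimmest quintile depended on the background correction, in which an added offset narrows the log changes of dim probes most. The number called in this quintile was 1 with a normexp offset of 50, 15 with an offset of 10, 87 with the scanner's processed signals and 131 in the authors' table. At the offset of 50 the SD of the changes across its probes was 0.09, against 0.28 in the fourth and 0.28 in the brightest quintile. The fourth quintile had 134, 162, 178 and 231 calls at these settings, the most of the 5. It was passed by the brightest with 75th percentile scaling, 173 against 195, and with loess but no quantile step, 163 against 182.

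**Figure D2:**
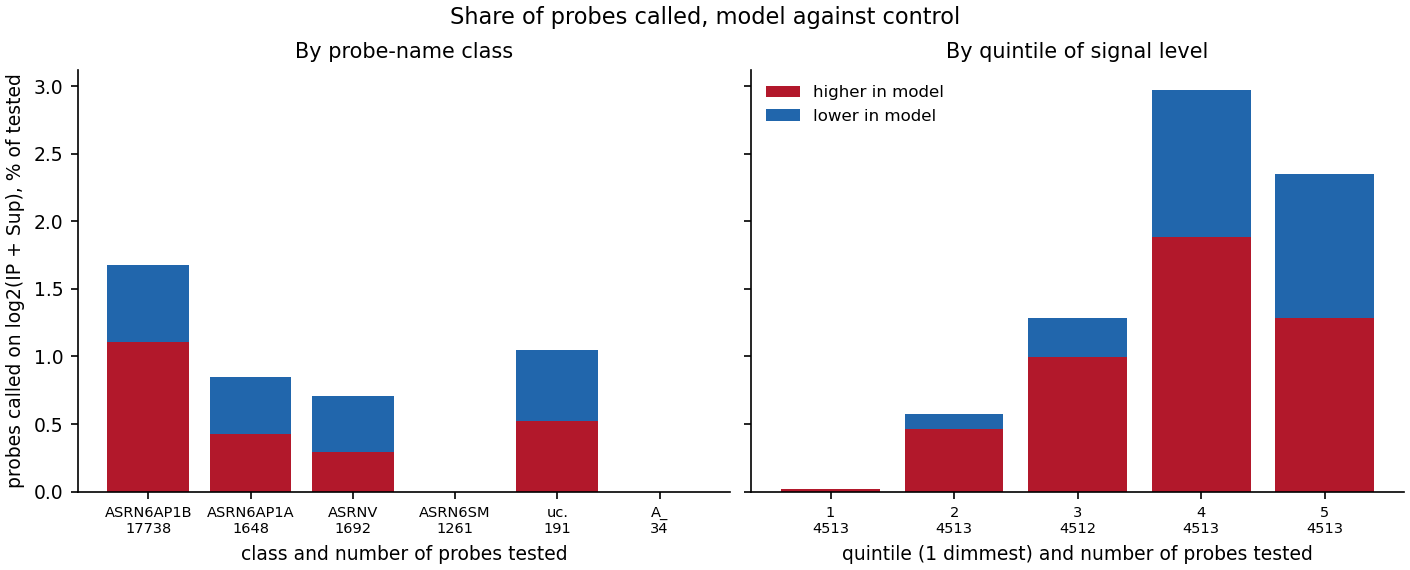
Bars show the percentage of tested probes called on log2(IP+Sup), red for higher and blue for lower in the model group, by probe-name class on the left and by quintile of mean signal on the right, with the number of probes tested under each bar. ASRN6AP1B reached 1.67% and ASRN6SM 0, and the share went from 0.0222% in the dimmest quintile to 2.97% in the fourth.

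Probes that passed the background criterion in only 1 group were nearly all on the model side. In both channels, 126 probes were well above background on all 3 model arrays and on no control array, and 1 probe the other way round. Model replicate 1 had the largest share of probes above background (71.0%) and control replicate 2 the smallest (57.8%), so detection moved with the array, and its part in this count was not tested. The 126 probes were picked for passing on the model arrays only, so the choice favours a higher model signal and the differences are no test. For some of them the mean signal was nonetheless lower on the model than on the control arrays. Each was measured against the control signal, or the lowest detected signal of a control array where its own lay below that. The difference was at least 1.5-fold for 8 of the 126 probes, and the median bound was 0.046 in log2. The largest bound was at least 3.1-fold, for ASRN6AP1B10009358211, and the next at least 2.43-fold, for ASRNV2002768911. Of the 126 probes 86 were of class ASRN6AP1B, 15 of ASRNV, 13 of ASRN6SM, 11 of ASRN6AP1A and 1 an accession probe. None was a uc. probe. The classes differed in size, with 28015 ASRN6AP1B probes and 959 uc. probes among the 41186 on the array. The counts were not tested against class size, so they do not show an excess or a lack in any class.

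Of the 959 probes for ultraconserved regions on the array, 195 met the background criterion and 191 were tested. Their median change was -0.02, 12 reached an unadjusted p under 0.05, and 2 were called, uc.440- higher and uc.350+ lower. The probe of uc.440- had the largest increase among them, and the next one up changed by 0.63 without being called.

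The signal of uc.440- was higher on every model array than on any control array that gave a value. Its log2(IP+Sup) was 9.22 and 9.47 on control replicates 1 and 3, the spot of replicate 2 being an outlier spot, and 10.16, 10.38 and 10.75 on model replicates 1 to 3. The change was 1.09 (SE 0.20, n = 2 and 3), or 2.12-fold, with an adjusted p of 0.51. With the outlier spot kept, control replicate 2 read 9.32 and the change was 1.098 (SE 0.15). On model replicate 1, scanned with the controls, uc.440- stood 0.81 above the control mean.

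Both fractions of uc.440- were higher. Sup read 8.01 and 8.43 on the control arrays and 9.13, 9.11 and 9.28 on the model arrays, a change of 0.95 (SE 0.16, adjusted p = 0.669). IP read 8.39 and 8.51 against 9.19, 9.60 and 10.11, a change of 1.18 (SE 0.27, adjusted p = 0.612). Between the model rats the IP values spread more (SD 0.46) than the Sup values (SD 0.09). The call on log2(IP+Sup) held in 17 of 19 alternatives, with changes from 0.80 to 1.39, and was lost with array medians only (0.80, SE 0.35) and after adjustment. In the authors' table its adjusted p was 0.0453.

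The uc.350+ transcript was lower in the model group, though less stably so. Its log2(IP+Sup) was 11.01, 10.42 and 10.36 on the control arrays and 10.20, 9.52 and 10.10 on the model arrays, and the groups did not overlap. The change was -0.66 (SE 0.24, adjusted p = 0.602). Nearly all of the signal was in Sup, which changed by -0.70 (SE 0.26, adjusted p = 0.669), and IP changed by -0.26 (SE 0.15), which did not pass. The call held in 10 of 21 alternatives, with changes from -0.80 to -0.25. It was lost without control replicate 1 (-0.45, SE 0.22) and without model replicate 2 (-0.45, SE 0.22).

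For uc.77- the total was not called, IP was lower without being called, and Sup overlapped between the groups. Its log2(IP+Sup) was 9.11, 8.94 and 9.08 on the control arrays and 8.54, 8.77 and 8.85 on the model arrays. The groups did not overlap, and the change was -0.32 (SE 0.10, adjusted p = 0.557), under the 1.5-fold threshold. Sup read 6.88, 7.05 and 6.99 against 6.67, 7.48 and 7.32 and overlapped, a change of 0.18 (SE 0.21). IP read 8.76, 8.48 and 8.70 against 8.08, 8.004 and 8.24, a change of -0.54 (SE 0.11, adjusted p = 0.567). With array medians only, the change of the total was -0.61 and was called.

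Of the opposite strands, 1 probe met the background criterion. The probe of uc.440+ was above background on no array in either channel, and that of uc.350- on 3 arrays in IP and on none in Sup. The probe of uc.77+ met it, with log2(IP+Sup) of 9.58, 9.64 and 9.84 on the control arrays and 9.72, 9.63 and 9.37 on the model arrays. Its change of -0.11 (SE 0.12, adjusted p = 0.872) did not pass, and its groups overlapped.

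**Figure D3:**
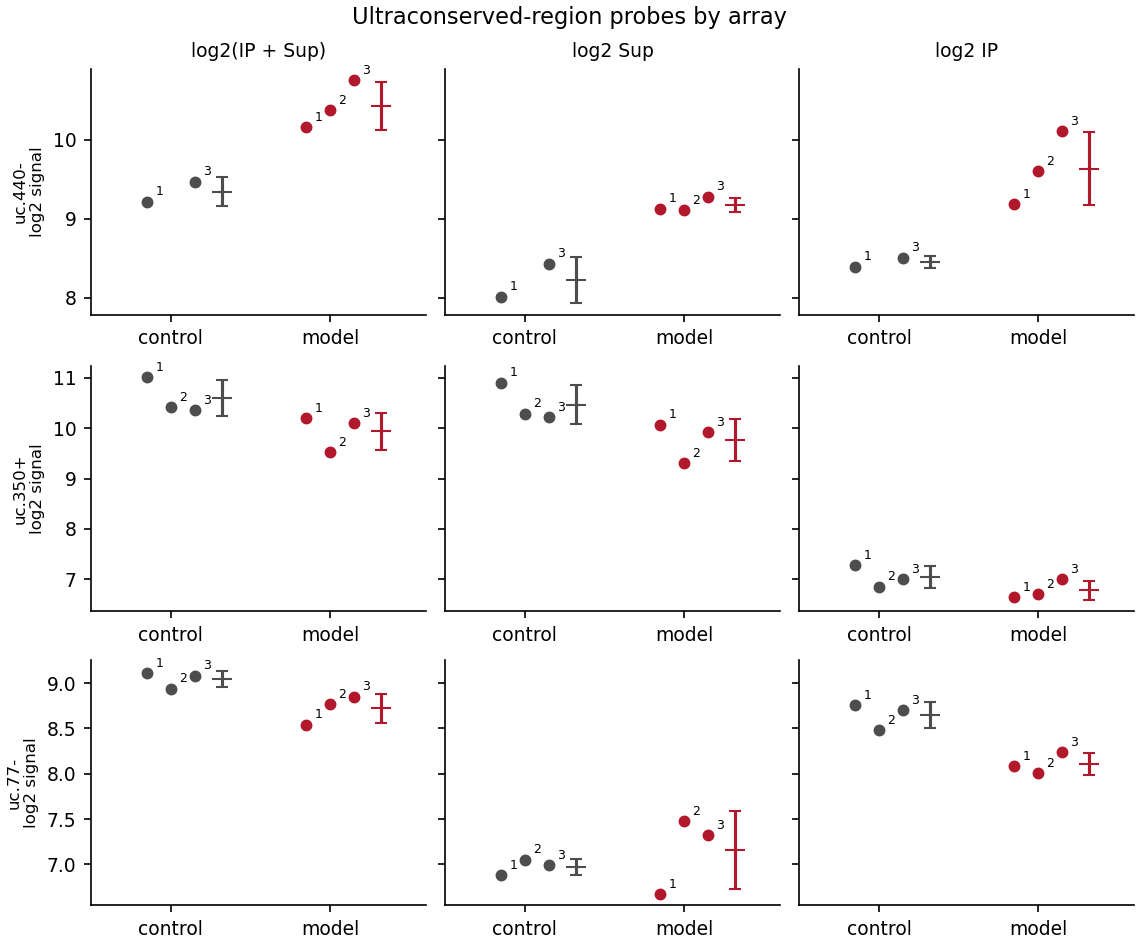
Points are single arrays, numbered by replicate, with log2(IP+Sup), Sup and IP signals in columns and uc.440-, uc.350+ and uc.77- in rows, and the bars beside them are the mean and SD of the group. For uc.440- the model arrays lie above the control arrays in every column (10.16 to 10.75 against 9.22 and 9.47 in total), and for uc.77- the IP signal is lower while Sup overlaps.

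Genes could be named for 30 of the 50 probes that carry an accession, and 20 of them passed the background criterion. Each of these probes was printed in 10 spots per array, whose median SD within an array was 0.10 on log2(IP+Sup), against 0.17 between rats of a group, and the spread between rats was the larger in 32 of 34 probes. None of the 20 genes was called on the total, against 1.44% of all tested probes. The median change was -0.11, with 4 genes above 0 and 16 below, and 3 reached an unadjusted p under 0.05. Over all tested probes 37.3% of the changes were above 0 and 8.04% reached that p. For 12 of the 20 the 95% interval lay within 1.5-fold. The lists of genes for the tissue could be read only in part, since 4 of 16 neuronal and synaptic genes, 1 of 15 glycolysis and hypoxia genes, 1 of 13 growth factor genes and 3 of 15 RNA-binding and translation genes had a named probe. None of the 10 m6A writers, erasers and readers and none of the 15 inflammation genes had one. Of the marker genes for neurons, astrocytes, microglia, leukocytes, oligodendrocytes, endothelium and erythrocytes only the neuronal Map2 did, so the cell make-up of the samples could not be followed.

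The 4 genes of the neuronal and synaptic list all had changes below 0, with a median of -0.35, and none was called. Most tested probes, 14146 of 22564, also had a change below 0. Ptk2b and Trim2, described below as genes of neurons, were outside this list and changed by 0.04 and -0.03. Map2, which encodes a microtubule-associated protein of dendrites, read 12.40, 12.38 and 11.97 on log2(IP+Sup) in the control rats and 11.56, 12.06 and 11.94 in the model rats. Its groups overlapped and the change was -0.40 (SE 0.18, adjusted p = 0.645). Map2 was called lower with array medians only (-0.85) and with loess without the quantile step (-0.68). With the scan block, which sets model replicate 1 alone against the control arrays, its change was -0.69.

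Dlg4, which encodes the postsynaptic scaffold protein PSD-95, changed by -0.31 (SE 0.26), from 10.28, 10.49 and 9.44 in the control rats to 9.64, 9.87 and 9.78. Ppp2r2b, a brain-enriched regulatory subunit of protein phosphatase 2A, had the lowest estimate among the genes, -0.52 (SE 0.29). It read 11.29, 10.96 and 10.20 in the control rats and 10.60, 10.26 and 10.04 in the model rats. The SD between control rats was 0.55 for Dlg4 and 0.56 for Ppp2r2b, against 0.11 and 0.28 between model rats. The change of Ppp2r2b lay in IP (-0.79, SE 0.37) and not in Sup (0.13, SE 0.17), and neither passed. Cdh2, the neuronal adhesion molecule N-cadherin, changed by -0.27 (SE 0.15), with Sup at 0.17 and IP at -0.37.

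Control replicate 3 was low for several of these genes. Ldha, the glycolytic enzyme lactate dehydrogenase A, which responds to hypoxia, read 12.03, 12.09 and 10.83 in the control rats and 11.35, 11.10 and 11.11 in the model rats. Its change was -0.46 (SE 0.34, adjusted p = 0.789), and without control replicate 3 it was -0.87 (SE 0.11, adjusted p = 0.0522). Ptk2b, a calcium-activated tyrosine kinase of neurons, read 10.52, 10.87 and 8.55 in the control rats and 9.998, 10.07 and 9.99 in the model rats. Its change was 0.04 (SE 0.57) and became -0.67 (SE 0.12, adjusted p = 0.0975) without control replicate 3. Without that array 5 of the 20 genes were called, all of them lower, namely Ldha, Ptk2b, Dlg4 (-0.62, SE 0.11), Ppp2r2b (-0.83, SE 0.19) and Ndfip2 (-0.65, SE 0.09). With all arrays none was.

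Slc28a2, a sodium-coupled transporter that takes up purine nucleosides, had the highest estimate. It read 8.75, 8.55 and 8.91 on log2(IP+Sup) in the control rats and 9.15, 9.28 and 9.11 in the model rats, with no overlap. The change was 0.44 (SE 0.11, adjusted p = 0.521), under 1.5-fold. Its Sup signal was called higher, with 7.14, 7.17 and 7.34 against 7.64, 8.003 and 8.13, a change of 0.71 (SE 0.14, adjusted p = 0.669), while its IP signal changed by 0.26 (SE 0.17) and overlapped. The Sup call was lost with array medians only, without the quantile step and with the scan block, and the total was called with the scanner's processed signals (0.64).

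Eif4b, a translation initiation factor that aids the helicase unwinding mRNA leaders, read 8.64, 8.71 and 8.996 in the control rats and 9.04, 9.12 and 8.99 in the model rats. The change was 0.27 (SE 0.11, adjusted p = 0.621), and the groups overlapped through control replicate 3 and model replicate 3. Magoh, a core protein of the exon junction complex, changed by 0.05 (SE 0.12). Mex3c, an RNA-binding ubiquitin ligase, did not pass the background criterion in Sup.

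Cse1l, the nuclear export receptor for importin alpha, and Slc28a2 were the 2 of the 20 tested genes whose groups did not overlap. Over all tested probes with a value on every array, the share without overlap was 13.7%. Cse1l read 10.56, 10.54 and 10.48 in the control rats and 10.32, 10.33 and 10.24 in the model rats. The change was small but even, -0.23 (SE 0.07, adjusted p = 0.547), with -0.03 (SE 0.11) in Sup and -0.38 (SE 0.13) in IP. Fgf2, a growth factor for neural and vascular cells, changed by -0.10 (SE 0.11), with readings of 9.31, 9.45 and 9.24 against 9.02, 9.33 and 9.35, and its 95% interval of -0.38 to 0.17 lay within 1.5-fold.

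Among the ubiquitin ligase adaptors, Ndfip1 changed by -0.08 (SE 0.09) and Ndfip2 by -0.38 (SE 0.23). Ndfip2 read 11.27, 11.18 and 10.41 in the control rats and 10.68, 10.55 and 10.51 in the model rats, so that control replicate 3 lay below all model rats. The IP signals of Ndfip2 (-0.67 without a block) and Ppp2r2b were called lower with the replicate number as a block, at -0.67 (SE 0.15, adjusted p = 0.303) and -0.79 (SE 0.12, adjusted p = 0.294).

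Of the other genes, Trim2, a ubiquitin ligase of neurons, changed by -0.03 (SE 0.22), Pdk3, a kinase that restrains pyruvate dehydrogenase, by -0.08 (SE 0.11), and Pop7, a subunit of ribonuclease P, by -0.01 (SE 0.12). Med16, a Mediator subunit, changed by -0.12 (SE 0.10), Pdcd10, a gene of vascular stability, by -0.15 (SE 0.12), Odf2l by -0.13 (SE 0.09) and LOC108352165 by -0.10 (SE 0.09). None of these 7 passed the test. The sign of the change turned in 6 of 20 alternatives for Pop7, in 5 for Trim2 and in 6 for Magoh.

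**Figure D4:**
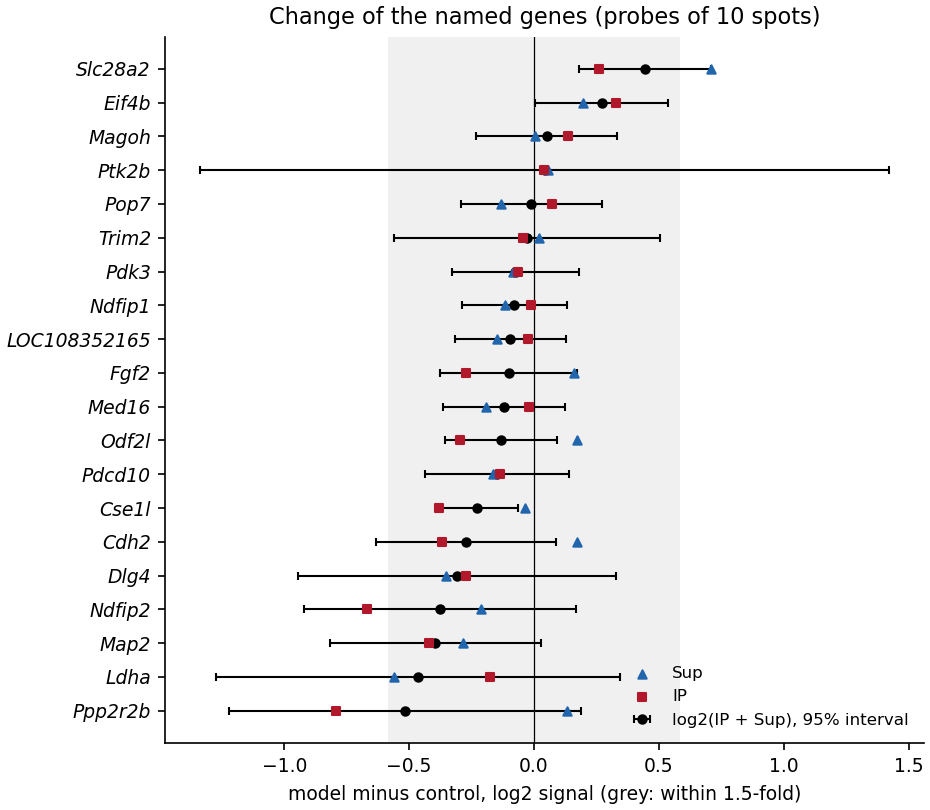
Black points are the change in log2(IP+Sup), model minus control, of the 20 named genes with its 95% interval, blue triangles the change in Sup and red squares the change in IP, and the grey band marks changes within 1.5-fold. Slc28a2 (0.44) and Eif4b (0.27) are the only genes whose interval lies above 0, Cse1l (-0.23) is the only one below, and Ptk2b has the widest interval.

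The remaining 10 named genes were not tested because a channel fell short of background on some array. Nlrp3, the sensor protein of an inflammasome, was above background on 2 arrays in IP and on none in Sup, and Gdnf, a neurotrophic factor, on 1 and none. Lhcgr, the receptor for luteinizing hormone, was above background on none. Enpp1, Mex3c, Napepld, Nat1 and Pld1 were above background on all 6 arrays in IP but on 2 to 5 in Sup. Pld1, phospholipase D1, read 8.45, 8.40 and 8.71 in the control rats and 8.79, 8.82 and 9.09 in the model rats, and Nat1, an arylamine acetyltransferase, 7.70, 7.82 and 7.74 against 8.14, 8.06 and 8.16. In both the groups did not overlap, and neither value was tested. Both were picked after their values were seen, and 13.7% of tested probes with a value on every array had no overlap. P2rx2, an ATP-gated channel, and Cyp2e1, a cytochrome P450, were above background on 5 and 2 arrays in IP and on 1 array each in Sup.

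The 14 accession probes without a gene name had a median change of 0.02, with 8 above 0 and 6 below, and none was called. The probe of accession XM_235305 read 11.50, 11.54 and 11.34 in the control rats and 11.74, 11.75 and 11.91 in the model rats, a change of 0.34 (SE 0.09, adjusted p = 0.53) with no overlap.

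The 2 largest changes in each direction, among called probes with groups that did not overlap, belonged to 4 probes of class ASRN6AP1B whose genes are not named here. Their call on log2(IP+Sup) was kept in the 7 scalings and with each of the 6 replicates left out, as was that of 59 probes in all. ASRN6AP1B10003697211 read 9.99, 9.55 and 9.44 on log2(IP+Sup) in the control rats and 13.01, 11.39 and 14.73 in the model rats, a change of 3.38 (SE 0.78, adjusted p = 0.521). ASRN6AP1B10623996711 read 9.53, 9.74 and 9.98 against 11.78, 11.26 and 13.44, a change of 2.41 (SE 0.53, adjusted p = 0.521). For both, model replicate 3 was the highest and replicate 2 the lowest of the model rats, and the SD between control rats was 0.29 and 0.23, against 1.67 and 1.14 between model rats.

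Downwards, ASRN6AP1B10007893911 read 13.61, 11.90 and 12.55 in the control rats and 8.90, 7.79 and 11.002 in the model rats, a change of -3.46 (SE 0.84, adjusted p = 0.521). ASRN6AP1B10005374211 read 14.83, 14.02 and 14.13 against 9.95, 9.39 and 13.39, a change of -3.42 (SE 1.01, adjusted p = 0.547). In both, model replicate 3 lay nearest to the control rats, and the SD between model rats was 1.63 and 2.17. Without model replicate 3 the changes were -4.34 and -4.66. Sup and IP were called in the same direction for all 4 probes, though not at every setting. The IP call of ASRN6AP1B10005374211 was lost without control replicate 1, model replicate 1 or model replicate 2, and all 3 of its calls with the equal-variance test. The Sup call of ASRN6AP1B10623996711 was lost with array medians only and with the scan block, and the IP call of ASRN6AP1B10003697211 with the scan block. Within the controls' scan session, model replicate 1 differed from the control mean by 3.35, 2.03, -3.79 and -4.38 for the 4 probes in the order given.

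**Figure D5:**
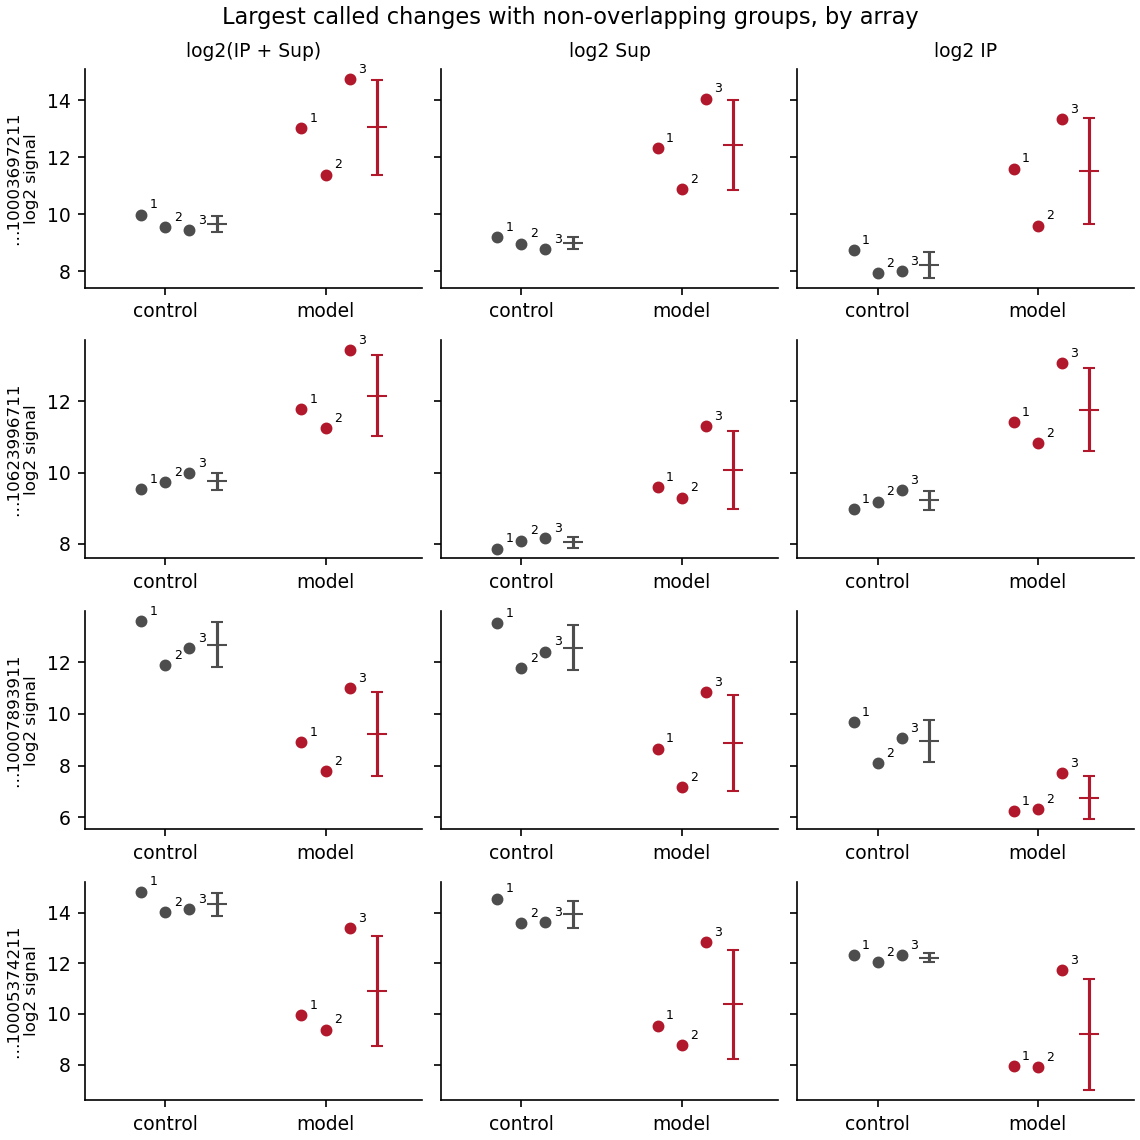
Points are single arrays, numbered by replicate, for the 4 probes with the largest called changes and non-overlapping groups in rows and log2(IP+Sup), Sup and IP signals in columns, and the bars are the mean and SD of each group. The groups do not overlap in any panel, and model replicate 3 is the highest of the model arrays in each row (14.73, 13.44, 11.002 and 13.39 in total).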

How the data were processed

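RNA from the ischemic-side cortex of each rat was hybridized to a 2-colour m6A epitranscriptomic microarray, IP RNA in Cy5 and Sup RNA in Cy3, without a dye swap. Values start from what the authors deposited after Agilent Feature Extraction 11.0.1.1: median intensities of spots and local background, which are not normalized, processed intensities, which that software had corrected, and its flags for outliers and for signal well above background. A second deposited file holds log2 signals normalized by the authors and served as an alternative only.

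Median intensities were corrected by normexp with an offset of 50, control and outlier spots were left out, channels were normalized by loess within arrays and Aquantile between arrays, spots of a probe were averaged, and log2(IP+Sup) was computed. Groups were compared with lmFit and eBayes of limma 3.58.1 in R 4.3.3, without covariates and with Benjamini-Hochberg adjustment over all 22564 probes tested. Intervals are 95% intervals of this fit. With 3 rats per group, the smallest p of an exact permutation test is 0.1, so none was used. The labels call the samples biological replicates. The small number of arrays limits the precision of every value. Data were read with the R package data.table (version 1.17.8), and pandas 2.3.3 and matplotlib 3.10.9 under Python 3.11.15 drew the figures.

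The probe set, the classes and the gene lists were chosen with earlier results of these data known. Named are every gene with a probe matched by accession to the RefSeq gene table (assembly GRCr8, used for names only, 30 of 50 probes), uc.440-, uc.77- and called uc. probes, and the 2 largest called changes in each direction with non-overlapping groups. Probes XM_235305, ASRN6AP1B10009358211 and ASRNV2002768911 and the genes not tested were added after their values were seen. Primer sequences came from the primer list of the study.

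To see whether replicate numbers pair the rats, deviations from group means were correlated between arrays of 1 number. On IP r was 0.376, 0.159 and 0.181, above 0.1 each time, and the number was taken as a possible pairing for IP, although neither the labels nor the methods say what a number shares.

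Alternatives covered the background correction, normexp offset, normalization, filter, outlier spots, test, adjusted p, a fit of all 9 arrays, a block for the replicate number or the scan session, the deposited table and each replicate left out. The scan block sets model replicate 1 alone against the control arrays, so its values rest on a single model rat.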

Additional observations from a re-analysis of the deposited data

How the results depend on the processing

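The direction of each of the 6 called named probes on log2(IP+Sup) was the same in every alternative that gave a value. The counts of called probes moved more. On log2(IP+Sup) 325 probes were called at the main setting, 676 with the scanner's processed signals, 515 with 75th percentile scaling, 973 in the deposited table and 158 with an equal-variance test per probe. On Sup, in place of 374, the count was 908 with the processed signals, 601 at an offset of 10, 246 with median centring, 118 with array medians only, 603 with 75th percentile scaling, 162 with the equal-variance test, 202 with the scan block and 2267 in the deposited table. On IP, in place of 446, it was 934, 683 and 722 with the processed signals, the offset of 10 and 75th percentile scaling, 208 with the equal-variance test, 281 with the scan block and 1193 in the deposited table. At an adjusted p under 0.05 it was 0, 0 and 0 in limma, and 2 probes passed this in the equal-variance test on log2(IP+Sup). With the deposited values 21 probes passed it on log2(IP+Sup), 3 on Sup and 60 on IP. Leaving out 1 replicate gave 229 to 727 on log2(IP+Sup), 248 to 767 on Sup and 282 to 1069 on IP, each time with the most calls without control replicate 3. The cause of these moves was not tested. With the replicate number as a block 383, 473 and 640 probes were called on log2(IP+Sup), Sup and IP. Same-numbered arrays deviated together with r of -0.00145, 0.11 and 0.0849 on log2(IP+Sup) and of -0.0492, 0.0792 and 0.0557 on Sup, so the numbers were not taken as pairs there. Among the named probes the block changed no call on log2(IP+Sup) or Sup, and on IP only those of Ndfip2 and Ppp2r2b. The alternative filters read the same values for the same probes. With them neither the medians of classes and quintiles nor the changes of named probes could move. The medians of classes and quintiles stayed within the spread between rats in 167 of 208 comparisons with an alternative, these filters included, and moved in 41. With the processed signals they were -0.070 in quintile 1 and -0.051 in quintile 2. At an offset of 10 they were -0.063 in quintile 1 and -0.054 in quintile 2. With array medians only they were -0.33 for the accession probes, -0.15 for ASRN6AP1A, -0.20 for ASRN6AP1B, -0.11 for ASRNV, -0.12 for the uc. probes, -0.0088 in quintile 1, -0.11 in quintile 2, -0.21 in quintile 3, -0.31 in quintile 4 and -0.36 in quintile 5. Without the quantile step they were -0.28 for the accession probes, -0.12 for ASRN6AP1A, -0.16 for ASRN6AP1B, -0.10 for ASRNV, -0.090 for the uc. probes, -0.086 in quintile 2, -0.17 in quintile 3, -0.26 in quintile 4 and -0.33 in quintile 5. With 75th percentile scaling they were 0.027 for ASRN6AP1A, 0.061 for ASRN6SM, 0.054 for ASRNV, 0.056 for the uc. probes, 0.13 in quintile 1, 0.058 in quintile 2 and -0.18 in quintile 5. With the scan block they were -0.063 for ASRN6AP1A. In the deposited table they were 0.091 for ASRN6AP1A, 0.070 for ASRN6AP1B, 0.15 for ASRN6SM, 0.090 for ASRNV, 0.086 for the uc. probes, 0.087 in quintile 1, 0.082 in quintile 2, 0.076 in quintile 3, 0.071 in quintile 4 and 0.075 in quintile 5. Spots of dim probes lie near the background, so changes in the dimmest quintiles are the least certain.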
